A study of Mus musculus with 37 samples.

Results

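The genes described here are 35 genes of the complement and coagulation systems, chosen by symbol. Of these, 32 had a probe under their symbol on the array and 29 were detected on enough arrays to be tested, among 12866 genes tested in all. C1ra, F3 (tissue factor) and Fgb (the fibrinogen beta chain) had probes that were detected on at most 1 array, and C3, Cfd and A2m are not analysed here.

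Expression was measured with Illumina bead arrays in total RNA of whole mouse kidneys, in 12 groups that hold 37 arrays of 25 mice. For the Twist1-deleted genotype (ggt-cre+;Twist flox/flox) the obstructed kidneys of 4 mice and the contralateral kidneys of 3 were arrayed, and in the Twist1-line controls (ggt-cre-;Twist flox/flox) both kidneys of 3 mice. The Snai1-deleted mice (ggt-cre+;Snail flox/flox) and the Snai1-line controls (ggt-cre-;Snail flox/flox) had both kidneys of 3 mice each. Healthy kidneys came from 3 Twist1-deleted, 3 Snai1-deleted, 3 wild-type mice with ggt-cre and 3 wild-type mice without it. Mice of the Twist1 line, like the wild-type mice, had a mixed C57Bl/6 and sv129 background, whereas the Snai1 line had a mixed C57Bl/6 and Balb/c background. All mice were 10 weeks old except the healthy deleted mice, which were 26 weeks old. Obstruction means that the ureter of 1 kidney was tied off, and its duration is not given in the sources used here. The labels place the loss of the floxed gene in proximal tubule cells, and within each line cre and the deletion went together. The contralateral kidney belonged to the same animal and is not a kidney of an unoperated mouse.

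Complement is a cascade of plasma proteins that marks and lyses targets. The classical pathway starts with C1q, the lectin pathway with mannose-binding lectins and the MASP proteases, and the alternative pathway with C3, factor B, factor D and properdin. All routes meet at C3 and end in a membrane pore built from C5 to C9, and cell-surface and soluble inhibitors restrain each step. Coagulation converts fibrinogen to fibrin through thrombin, is started by tissue factor, and is limited by the protein C system, by tissue factor pathway inhibitor and by antithrombin. The liver makes most of these proteins in plasma, while C1q and properdin are known products of myeloid cells, and kidney tubules are known to make several complement components.

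Of these genes, C1qb, C1qc and C1qa lie next to each other on chromosome 4, Fgg, Fga and Fgb on chromosome 3, and Cfb and C2 on chromosome 17. The promoters of 5 members that rose after obstruction in all 4 genotypes are printed here so that the windows can be read beside their values (RefSeq, GRCm38.p6, 250 bases before to 50 bases after the transcription start, on the gene's strand). C1qa, Cfi, Masp1 and Serping1 rose in the same way and are named only. Capitals mark matches to GAGGAA, the core bound by the myeloid factor PU.1, and to TTCNNNGAA, the palindrome bound by STAT factors; both strands were searched, so that GAGGAA on the opposite strand reads TTCCTC.
C1qb, chr4:136886151-136886450, minus strand: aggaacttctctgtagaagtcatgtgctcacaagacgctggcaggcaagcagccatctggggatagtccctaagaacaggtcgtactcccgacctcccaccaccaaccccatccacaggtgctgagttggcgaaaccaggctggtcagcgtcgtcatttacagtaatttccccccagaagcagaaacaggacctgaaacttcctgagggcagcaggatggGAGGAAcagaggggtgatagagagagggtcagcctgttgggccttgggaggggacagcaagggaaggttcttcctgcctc
C1qc, chr4:136892865-136893164, minus strand: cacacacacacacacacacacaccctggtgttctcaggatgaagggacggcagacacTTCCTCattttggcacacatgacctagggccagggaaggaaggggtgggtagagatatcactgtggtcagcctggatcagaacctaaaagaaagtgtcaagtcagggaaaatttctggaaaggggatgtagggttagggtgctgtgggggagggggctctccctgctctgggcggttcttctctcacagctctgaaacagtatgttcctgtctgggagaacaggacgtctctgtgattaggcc
Cfp, chrX:20931506-20931805, minus strand: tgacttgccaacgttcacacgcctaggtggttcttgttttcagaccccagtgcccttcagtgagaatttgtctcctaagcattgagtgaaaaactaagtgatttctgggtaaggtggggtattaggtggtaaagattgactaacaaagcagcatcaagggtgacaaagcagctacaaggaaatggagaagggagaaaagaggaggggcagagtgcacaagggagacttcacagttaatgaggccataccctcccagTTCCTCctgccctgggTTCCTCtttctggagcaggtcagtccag
F2r, chr13:95618417-95618716, minus strand: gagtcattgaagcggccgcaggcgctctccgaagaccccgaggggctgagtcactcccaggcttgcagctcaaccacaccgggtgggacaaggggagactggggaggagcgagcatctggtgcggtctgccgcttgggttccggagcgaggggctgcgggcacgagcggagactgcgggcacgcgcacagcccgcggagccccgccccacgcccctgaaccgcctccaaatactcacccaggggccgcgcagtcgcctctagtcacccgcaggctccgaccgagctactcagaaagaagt
Pros1, chr16:62854057-62854356, plus strand: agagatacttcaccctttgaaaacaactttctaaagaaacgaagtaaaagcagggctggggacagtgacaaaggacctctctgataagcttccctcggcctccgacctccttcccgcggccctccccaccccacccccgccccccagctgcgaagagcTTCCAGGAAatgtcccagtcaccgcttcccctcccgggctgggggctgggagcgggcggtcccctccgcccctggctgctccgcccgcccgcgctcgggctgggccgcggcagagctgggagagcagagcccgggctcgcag
GAGGAA occurred once in the C1qb window at position -30 from the start, once in the C1qc window at position -193, and in 2 places in the Cfp window. TTCNNNGAA occurred in the Pros1 window at position -92, and the F2r window held neither string. Of 32851 promoter windows of this length, 28.3% held GAGGAA and 8.3% held TTCNNNGAA, so a match is common and is given as a description of the letters only.

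The arrays of a group correlated at r = 0.936 to 0.992. Probes for the deleted genes gave dim readings in whole kidney: Twist1 was detected in 9 of 13 obstructed, 3 of 12 contralateral and 3 of 12 healthy kidneys, and the brighter Snai1 probe in 12 of 13, 4 of 12 and 7 of 12. In obstructed kidneys the Twist1 probe read 4.55 to 5.05 in Twist1-deleted mice and 4.69 to 5.41 in their controls, and the Snai1 probe read 4.80 to 5.61 in Snai1-deleted mice and 5.30 to 5.99 in theirs, all on the log2 scale. Where these probes lie relative to the deleted exons was not checked, so the readings do not test the labels. Kidney identity was read from proximal tubule markers, whose 10 genes summed to 73900 to 83100 intensity units in contralateral and 69700 to 80400 in healthy kidneys. Obstructed kidneys of 2 mice stood apart in this sum, which was 5470 in mouse 2 of the Twist1-line controls and 59300 in mouse 7 of the Twist1-deleted group, against 19000 to 28500 in the other kidneys of those 2 groups. Labels do not give sex, but Xist read above Y-linked genes in 1 mouse of each obstructed group, in all 3 healthy Twist1-deleted mice, in no healthy Snai1-deleted mouse, in no wild-type mouse with cre and in 1 of 3 without cre.

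Obstruction raised more of these genes than it lowered. In Twist1-deleted mice 14 of 29 rose and 3 fell, together 58.6%, against 40% of all genes, of which 21.9% rose and 18.2% fell. In Twist1-line controls 15 rose and 4 fell, together 65.5%, against 47.1% of all genes (26.6% up, 20.5% down). In Snai1-deleted mice 10 rose and 0 fell, together 34.5%, against 15.2% of all genes (10.5% up, 4.76% down). In Snai1-line controls 12 rose and 2 fell, together 48.3%, against 36.3% of all genes (21% up, 15.3% down). A gene passed where limma's Benjamini-Hochberg adjusted p, taken over all 12866 genes, was under 0.05. The median log2 change of the members was 1.09 in Twist1-deleted mice, 1.08 in Twist1-line controls, 0.69 in Snai1-deleted mice and 1.00 in Snai1-line controls, and that of all genes was between 0.00 and 0.05. With quantile normalisation and no background step the member medians were 0.71, 0.95, 0.37 and 0.38 in these groups, and those of all genes 0.00 to 0.02. With probes averaged the member medians were 0.62 in Twist1-deleted mice, 0.65 in Twist1-line controls, 0.38 in Snai1-deleted mice and 0.72 in Snai1-line controls, and in Twist1-line controls the median was 1.71 over the genes left by a stricter detection filter. F10, Serpinc1 and Serpind1 reached the detection minimum only with obstructed kidneys counted; without them 14 of 26 members rose in Twist1-line controls, and the numbers that rose or fell in the other 3 groups were as above. When any 1 of the 25 mice was left out, also one of a group not compared, the counts ran from 16 to 21 in Twist1-line controls, 10 to 18 in Snai1-line controls and 9 to 11 in Snai1-deleted mice. The highest Snai1-line count came without mouse 2, a Twist1-line control. In Twist1-deleted mice the count of 17 was 10 without mouse 6 and 16 without mouse 7, and either omission leaves 2 contralateral kidneys. Without mouse 2 it was 18 in Twist1-deleted mice and 18 in Twist1-line controls. RNA was taken from whole kidney, so fewer cells of a type and less RNA per cell cannot be told apart for any of these changes.

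The genes that rose in all 4 comparisons were C1qa, C1qb, C1qc, Masp1, Cfp, Cfi, Serping1, F2r and Pros1, which is 31% of the 29 members against 9.38% of all genes. No member fell in all 4, against 3.82% of all genes, and 31% of the members passed in none, against 42.6% of all genes. Each of the 9 genes was higher in the obstructed kidney in 12 of 12 pairs from the same mouse. The 13 obstructed and 12 contralateral kidneys did not overlap for any of the 9 genes. The share of all genes that separate in this way is not given here, so the separation describes these genes only. Every one of the 549 recomputed values of the 9 genes, under other settings and with single mice left out, stayed past the threshold in the same direction.

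**Figure D1:**
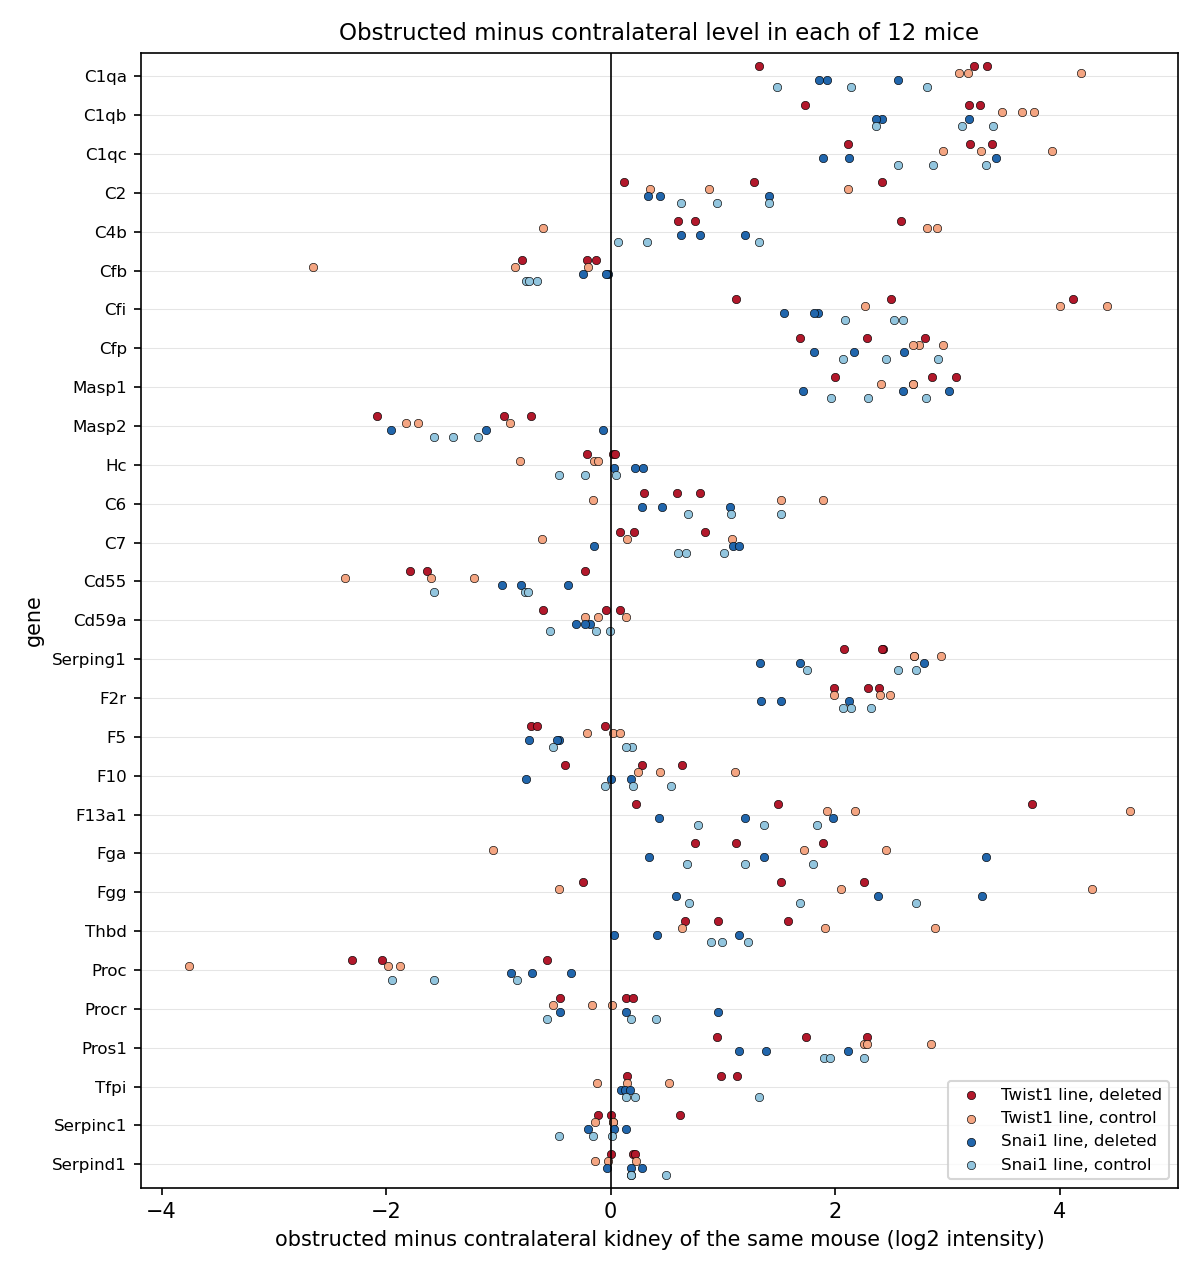
Difference in log2 intensity between the obstructed and the contralateral kidney of the same mouse (x axis) for each of the 29 genes (y axis), with 1 point per mouse for 12 mice, coloured by genotype. All 12 points lie right of 0 for C1qa, C1qb, C1qc, Cfi, Cfp, Masp1, Serping1, F2r and Pros1, and left of 0 for Cfb, Masp2, Cd55 and Proc.

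Among the starters of the classical and lectin pathways, 6 of 7 measured genes rose and 1 fell in Twist1-line controls, 5 rose and 1 fell in Twist1-deleted mice and in Snai1-line controls, and 4 rose and 0 fell in Snai1-deleted mice. Of all genes 26.6% rose and 20.5% fell in Twist1-line controls, 21.9% and 18.2% in Twist1-deleted mice, 21% and 15.3% in Snai1-line controls, and 10.5% and 4.76% in Snai1-deleted mice. C1qa, C1qb and C1qc encode the 3 chains of C1q, the molecule that recognises antibody, dying cells and other ligands. C1qb read 11.35, 11.83, 11.56 and 9.45 in obstructed kidneys of Twist1-deleted mice 4 to 7, against 8.16, 8.27 and 7.72 in contralateral kidneys of mice 4, 6 and 7, on the log2 scale of normalised intensity used for all levels here. In Twist1-line controls C1qb read 11.79, 11.71 and 11.27 in obstructed kidneys, against 8.30, 8.06 and 7.50 in contralateral kidneys. Obstructed kidneys were high in every mouse, with mouse 7 the lowest of them, and no contralateral kidney reached even that value. The log2 change of C1qb was 3.64 ± 0.38 (SE) in Twist1-line controls, a 12.5-fold rise (adjusted p = 1.98e-08), and 3.00 ± 0.36 in Twist1-deleted mice (adjusted p = 2.56e-07). In the Snai1 line C1qb rose by 2.97 ± 0.38 in controls (adjusted p = 1.04e-06) and by 2.65 ± 0.38 in Snai1-deleted mice (adjusted p = 1.71e-05).

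C1qa and C1qc gave the same picture. C1qa ran from 7.67 to 9.56 with a median of 9.04 in 13 obstructed kidneys, against 5.13 to 7.16 with a median of 6.29 in 12 contralateral kidneys. C1qc ran from 9.30 to 11.13 with a median of 10.55 in obstructed kidneys, against 6.65 to 8.24 with a median of 7.48 in contralateral kidneys. Their rises were 11.2-fold and 10.6-fold in Twist1-line controls, 7.25-fold and 8.97-fold in Twist1-deleted mice, 4.43-fold and 7.58-fold in Snai1-line controls, and 4.35-fold and 5.58-fold in Snai1-deleted mice. Markers of macrophages, known makers of C1q, moved with these genes: their 10 measured genes summed to 4870 to 14400 in obstructed kidneys, against 791 to 1760 in contralateral and 695 to 1850 in healthy kidneys. Of these 10 markers 8 rose in Twist1-line controls, 9 in Twist1-deleted mice and 10 in each Snai1-line group, with Lyz2 (lysozyme) and Adgre1 (F4/80) up by 4.30 and 3.30 on the log2 scale in Twist1-line controls. Of all genes 26.6% rose in Twist1-line controls, 21.9% in Twist1-deleted mice, 21% in Snai1-line controls and 10.5% in Snai1-deleted mice. The lowest sum among obstructed kidneys, 4870, was that of mouse 7. The part of the macrophage markers in the C1q result was not tested.

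Masp1, a protease of the lectin pathway, rose, whereas Masp2, the lectin-pathway protease that cleaves C4 and C2, fell. Masp1 ran from 8.86 to 9.89 (median 9.50) in obstructed kidneys and from 6.07 to 7.55 (median 6.91) in contralateral kidneys, which is 2.60 ± 0.35 higher in Twist1-line controls (adjusted p = 8.04e-07). Its changes were 2.61 in Twist1-deleted mice, 2.35 in Snai1-line controls and 2.44 in Snai1-deleted mice. A dim probe of Masp1, detected on 7 arrays, moved the same way by 0.25 to 0.84.

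Masp2 read 5.28, 4.61 and 4.39 in obstructed kidneys of Twist1-line controls, against 6.18, 6.43 and 6.10 in their contralateral kidneys. Its signal was above background in 7 of 13 obstructed kidneys, against 11 of 12 contralateral ones, and was lower in the obstructed kidney in 12 of 12 pairs. Its log2 change was -1.48 ± 0.50 in Twist1-line controls (adjusted p = 0.0158), -1.38 in Snai1-line controls (adjusted p = 0.0305) and -1.20 in Twist1-deleted mice (adjusted p = 0.0404). In Snai1-deleted mice its change of -1.05 did not pass (adjusted p = 0.163). It was detected in 1 of 3 obstructed kidneys of Twist1-line controls, 2 of 3 of Snai1-line controls and 3 of 4 of Twist1-deleted mice, so these sizes rest partly on readings not above background. Array weights ended the call in Twist1-line controls (-1.28, adjusted p = 0.081), and quantile normalisation, the series matrix values, no detection filter and array weights each ended that in Twist1-deleted mice (adjusted p = 0.0516 to 0.0638). Without mouse 8, 9 or 10 the Snai1-line call was lost, and without mouse 2 or 3 the Twist1-line call. The drop in Twist1-deleted mice was lost without any single mouse of that group. Another Masp2 probe, detected on 22 arrays, changed by -1.51 in Twist1-line controls and -1.32 in Snai1-line controls. In Twist1-deleted mice that probe changed by -0.74 and in Snai1-deleted mice by -0.67. A dim probe, detected on 3 arrays, changed by -0.31 to -0.01 over the 4 comparisons.

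C2 and C4b together form the enzyme that cleaves C3 in the classical and lectin pathways. C2 ran from 10.87 to 11.96 (median 11.60) in obstructed and from 9.54 to 11.35 (median 10.64) in contralateral kidneys, so the groups overlapped, although the obstructed kidney was higher in 12 of 12 pairs. C2 rose by 1.11 ± 0.35 in Twist1-line controls (adjusted p = 0.009), 1.00 ± 0.35 in Snai1-line controls (adjusted p = 0.0246) and 1.24 ± 0.32 in Twist1-deleted mice (adjusted p = 0.00313), while its change of 0.73 in Snai1-deleted mice did not pass (adjusted p = 0.161). With the mouse as a fixed block the rise of C2 in Snai1-line controls had an adjusted p of 0.0694. That rise was also lost without mouse 8 or 9 and at a common median (0.49). The rise in Twist1-line controls was lost without mouse 3 or at a common median (0.63), and the rise in Twist1-deleted mice without mouse 6. Over the settings other than leaving out mice, 4 recomputed values of C2 did not pass.

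C4b varied widely between mice, from 5.79 to 9.43 in contralateral kidneys. It read 8.61, 7.83 and 9.12 in obstructed kidneys of Twist1-line controls, against 5.79, 8.43 and 6.21 in their contralateral kidneys. Mouse 2 went against the other 2 mice, with a lower reading in its obstructed kidney. The log2 change of 1.71 ± 0.65 passed (adjusted p = 0.031) but was 1.15 without mouse 1 and 1.11 without mouse 3, neither of which passed, and 2.86 without mouse 2. The mean of its probes changed by 0.59 and did not pass, nor did C4b pass with quantile normalisation (1.09), with array weights (1.58) or with only the groups compared (adjusted p = 0.0963). The 2 other C4b probes, detected on 5 and 7 arrays, changed by 0.02 to 0.55 over the 4 comparisons, and C4b has a near copy, C4a, whose share of the signal was not checked. In Twist1-deleted mice the change of C4b was 1.42 (adjusted p = 0.0626) and passed with the mouse as a random block (1.40, adjusted p = 0.0367).

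In the alternative pathway the 2 measured members moved in opposite directions. Cfp encodes properdin, which stabilises the enzyme that cleaves C3. It read 10.86, 11.37 and 10.71 in obstructed kidneys of Twist1-line controls, against 8.10, 8.41 and 8.02 in contralateral kidneys. In Snai1-line controls it read 11.51, 11.16 and 11.67 in obstructed kidneys, against 9.06, 9.09 and 8.74 in contralateral kidneys. Every obstructed kidney lay above every contralateral one. Cfp rose by 2.80 ± 0.29 in Twist1-line controls (6.97-fold, adjusted p = 1.77e-08), 2.48 in Snai1-line controls, 2.43 in Twist1-deleted mice and 2.19 in Snai1-deleted mice (4.58-fold, adjusted p = 6.21e-06).

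Cfb encodes factor B, which carries the protease of that enzyme. It was lower in the obstructed kidney in 12 of 12 pairs, by 0.02 to 2.65, and fell by the test in Twist1-line controls. There it read 7.70, 5.78 and 8.53 in obstructed kidneys, against 8.55, 8.43 and 8.73 in contralateral kidneys. The drop was largest in mouse 2, and the groups overlapped because of mouse 3. The log2 change was -1.23 ± 0.37 (adjusted p = 0.00689), and without mouse 2 it was -0.53 and did not pass. The call was also lost under 1 of the other settings. In Snai1-line controls the change of Cfb was -0.71 (adjusted p = 0.137), which passed without mouse 2 (adjusted p = 0.0177), at a common median (adjusted p = 0.0350), with array weights (adjusted p = 0.0399) and with only the groups compared in the fit (adjusted p = 0.0344). It was -0.45 in Twist1-deleted mice (adjusted p = 0.32) and -0.10 in Snai1-deleted mice (adjusted p = 0.893).

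Of the terminal pathway, which builds the membrane pore, C6 rose and Hc (complement C5) and C7 passed in no obstruction comparison. C6 was detected in 11 of 13 obstructed kidneys, against 0 of 12 contralateral and 4 of 12 healthy kidneys. Against contralateral kidneys it was at least 1.56-fold higher in obstructed kidneys of Twist1-line controls (adjusted p = 0.00177). The rise was at least 1.65-fold in Snai1-line controls (adjusted p = 0.00237) and at least 1.27-fold in Twist1-deleted mice (adjusted p = 0.0422). Here "at least" sets the obstructed mean against the faintest detected signal of each contralateral array, or against the probe's own signal where that was brighter. In Twist1-deleted mice the call of C6 was lost with the mouse as a fixed block (adjusted p = 0.187), without mouse 4, 5, 6 or 7 and under 5 other settings, in Twist1-line controls without mouse 1, and in Snai1-line controls without mouse 10. Another C6 probe, detected on 5 arrays, changed by 0.45 in Twist1-deleted mice, 0.21 in Twist1-line controls, -0.05 in Snai1-deleted mice and 0.34 in Snai1-line controls, where the probe used changed by 0.66, 1.08, 0.60 and 1.09. C6 did not pass between obstructed kidneys of Twist1-line controls (mean 5.65) and healthy wild-type kidneys without cre (mean 5.08, detected in 2 of 3). Over the settings other than leaving out mice, 7 recomputed obstruction values of C6 did not pass. Hc was detected in 6 of 13 obstructed kidneys, against 3 of 12 contralateral kidneys, and C7 in 11 of 13, against 8 of 12. With the mouse as a random block, C7 passed in Snai1-line controls (0.76, adjusted p = 0.0271).

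Inhibitors of complement split in the same way, with 2 soluble inhibitors up and a membrane inhibitor down. Serping1 encodes the C1 inhibitor, which blocks C1r, C1s and the MASPs and also proteases of the contact system of coagulation. It ran from 11.38 to 13.08 (median 12.45) in obstructed, from 9.05 to 10.38 (median 9.92) in contralateral and from 9.22 to 10.64 (median 9.86) in healthy kidneys. Serping1 rose by 2.78 ± 0.29 in Twist1-line controls (6.87-fold, adjusted p = 1.57e-08), 2.45 in Twist1-deleted mice, 2.35 in Snai1-line controls and 1.93 in Snai1-deleted mice (3.82-fold, adjusted p = 2.46e-05). Its other probe changed by 1.78 to 2.90. Fibroblast markers, which are listed because fibroblasts can make this protein, summed over 9 of 10 genes to 4200 to 19400 in obstructed and 1010 to 2900 in contralateral kidneys, and their part in the result was not tested.

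Cfi encodes factor I, the protease that inactivates C3b and C4b. It read 9.53, 9.62, 10.01 and 8.74 in obstructed kidneys of Twist1-deleted mice, against 7.04, 5.89 and 7.62 in their contralateral kidneys. In Twist1-line controls it read 10.28, 9.03 and 9.71 in obstructed kidneys, against 5.86, 6.76 and 5.71 in contralateral kidneys. No obstructed kidney of any genotype read below the highest contralateral kidney. Cfi rose by 3.57 ± 0.40 in Twist1-line controls (11.8-fold, adjusted p = 5.19e-08), 2.63 ± 0.37 in Twist1-deleted mice, 2.40 ± 0.40 in Snai1-line controls and 1.73 ± 0.40 in Snai1-deleted mice (3.33-fold, adjusted p = 0.0032). The liver is the known main source of factor I. Of 12 hepatocyte markers, Alb, Ahsg, Serpina3k, Tat and Cps1 did not pass the detection filter. The 7 measured markers summed to 580 to 2260 in obstructed and 462 to 3280 in contralateral kidneys. Which cells gave the rise of Cfi was not tested.

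Cd55, decay-accelerating factor, takes the C3-cleaving enzymes apart on the cell surface. It read 5.24, 5.60 and 5.08 in obstructed kidneys of Twist1-line controls, against 6.46, 7.20 and 7.45 in their contralateral kidneys, with no overlap. Cd55 fell by 1.73 on the log2 scale there (SE 0.49, adjusted p = 0.00454) and by 1.32 in Twist1-deleted mice (SE 0.46, adjusted p = 0.0229). It was lower in the obstructed kidney in 12 of 12 pairs, and its changes of -1.02 in Snai1-line controls (adjusted p = 0.106) and -0.72 in Snai1-deleted mice (adjusted p = 0.356) did not pass. The change of Cd55 in Snai1-line controls passed with the mouse as a block (adjusted p = 0.0184 as a fixed and 0.0470 as a random block). The Twist1-deleted call was lost without mouse 4, 5 or 6, and the control call without mouse 3. Under the other settings 1 recomputed value of these calls of Cd55 did not pass. Cd59a, which blocks the membrane pore, passed in none of the 4, with pair differences of -0.60 to 0.14. Both have a near copy in the mouse genome (Cd55b and Cd59b), and what the probes share with it was not checked.

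**Figure D2:**
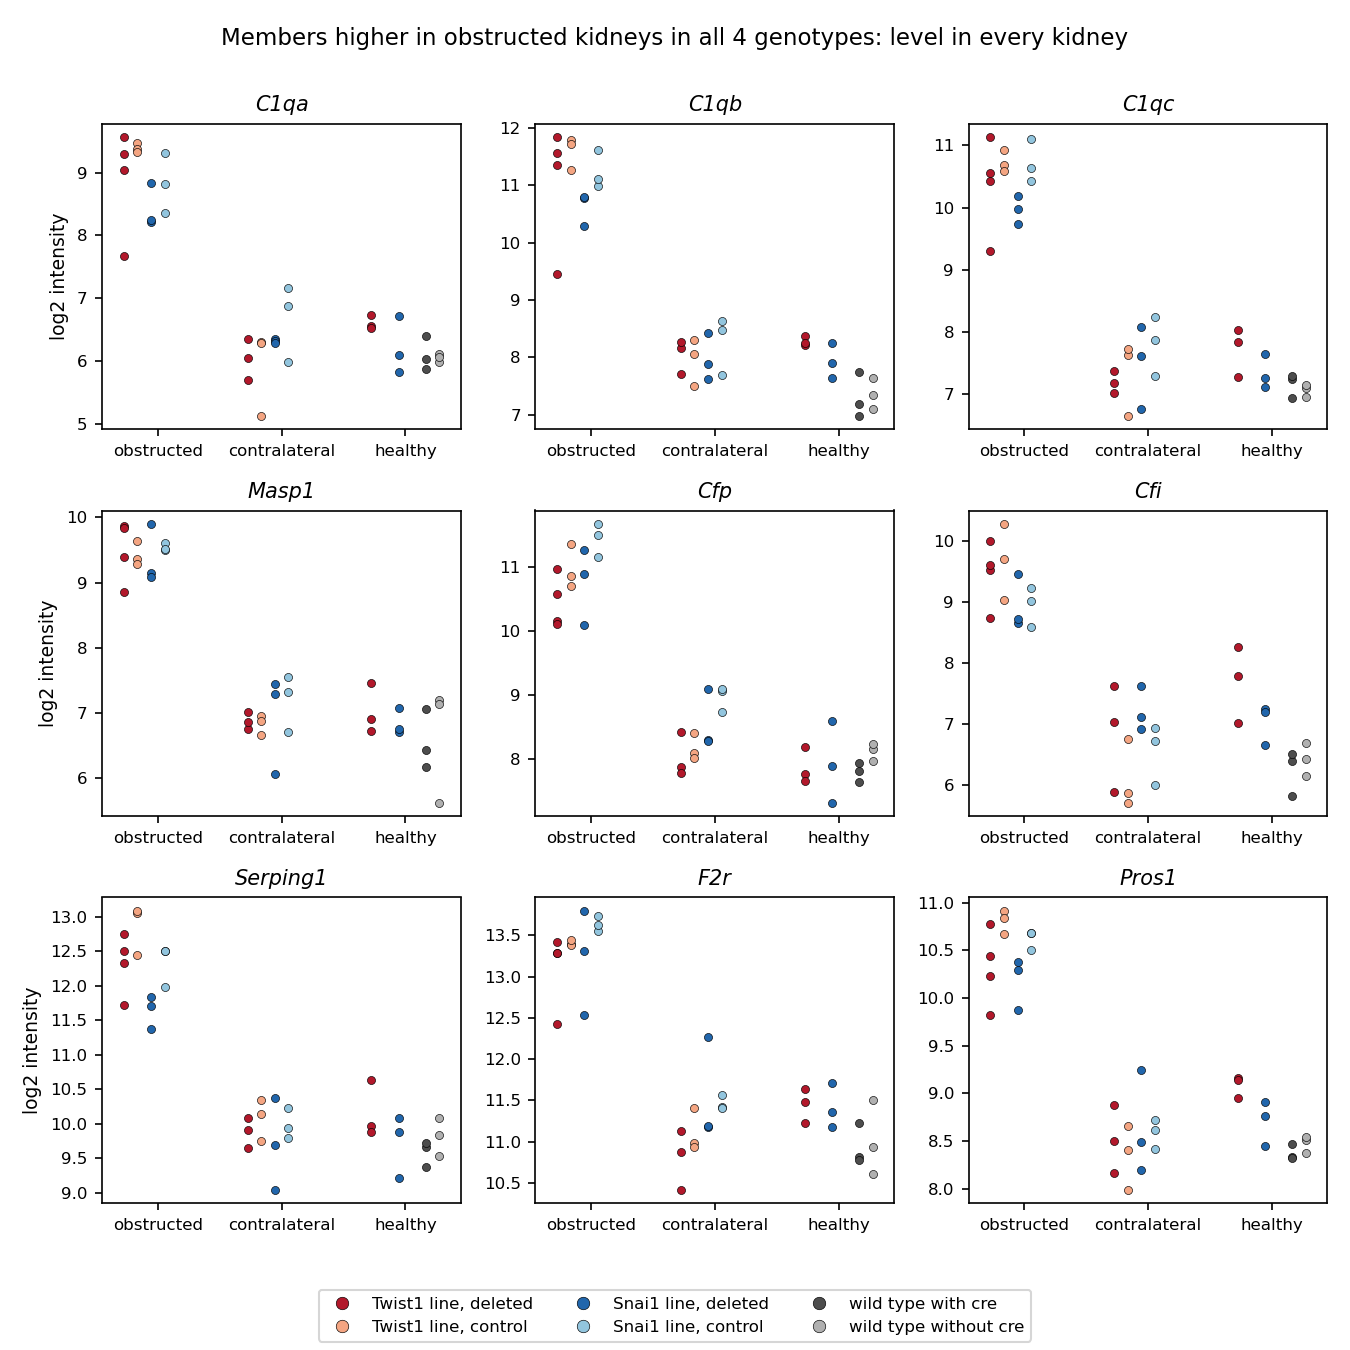
Log2 intensity (y axes) of the 9 genes that rose with obstruction in all 4 genotypes, 1 panel per gene, with 1 point per kidney for 13 obstructed, 12 contralateral and 12 healthy kidneys (x axes), coloured by genotype. In each panel the obstructed kidneys lie above all contralateral kidneys, and the y axes differ between panels and do not start at 0.

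Of the coagulation factors and the thrombin receptor, 3 of 4 measured genes rose in Twist1-line controls (F10 among them), 2 in Twist1-deleted mice and 1 in each Snai1-line group, against 26.6%, 21.9%, 10.5% (Snai1-deleted) and 21% (Snai1-line controls) of all genes. F10 was kept for testing only through obstructed kidneys, so no change is read from its call or from a count that includes it. F2r encodes the thrombin receptor PAR1, which cells use to sense thrombin. F2r read 13.28, 13.29, 13.42 and 12.42 in obstructed kidneys of Twist1-deleted mice, against 10.88, 11.13 and 10.42 in contralateral kidneys. In Snai1-deleted mice it read 12.53, 13.79 and 13.31 in obstructed kidneys, against 11.18, 12.27 and 11.19 in contralateral kidneys. The obstructed kidneys were all high, and mouse 12 of the Snai1-deleted group was high in both kidneys. F2r rose 4.89-fold in Twist1-deleted mice (adjusted p = 2.27e-07), 4.90-fold in Twist1-line controls, 4.51-fold in Snai1-line controls and 3.16-fold in Snai1-deleted mice (adjusted p = 0.000182). Endothelial markers, known to include cells that carry PAR1, summed over 10 genes to 9170 to 20500 in obstructed and 5270 to 9490 in contralateral kidneys, and their part in the result was not tested.

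F13a1 encodes the catalytic subunit of factor XIII, which cross-links fibrin and is known to be made by macrophages and megakaryocytes. It read 8.37, 8.48, 5.88 and 6.17 in obstructed kidneys of Twist1-deleted mice, against 4.62, 5.65 and 4.67 in contralateral kidneys. In Twist1-line controls it read 7.48, 9.28 and 6.51 in obstructed kidneys, against 5.54, 4.65 and 4.34 in contralateral kidneys. The obstructed kidneys within a group lay far apart, yet each with a contralateral array of the same mouse was above it. F13a1 rose by 2.91 ± 0.58 in Twist1-line controls (adjusted p = 0.000128) and 2.24 ± 0.54 in Twist1-deleted mice (adjusted p = 0.00149), where it was detected in 1 of 3 contralateral kidneys of each group, so the sizes rest partly on readings not above background. In the Snai1 line, where it was detected in no contralateral kidney, it was at least 1.74-fold higher in controls (adjusted p = 0.0717) and at least 1.49-fold higher in deleted mice (adjusted p = 0.165), neither passing. As a random block the mouse brought the control change of F13a1 past the threshold (adjusted p = 0.0395). In the Twist1 line 1 recomputed value of F13a1 under the other settings did not pass. Platelet markers summed over 3 of 8 genes to 165 to 1670 in obstructed and 109 to 260 in contralateral kidneys, and their part was not tested.

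F10 and F5, which together form the enzyme that makes thrombin, were near the detection limit. F10 was detected in 6 of 13 obstructed kidneys, against 2 of 12 contralateral kidneys and 0 of 12 healthy kidneys. In Twist1-line controls it was detected in 1 of 3 obstructed kidneys, against 0 of 3 contralateral kidneys. It counts among the 15 genes that rose there, but since it was kept for testing only through obstructed kidneys, no change is read from that call, which was lost with the mouse as a fixed block (adjusted p = 0.0556), at a common median, with array weights, with only the groups compared and without mouse 1 or 2. F5 was detected in 5 of 13 obstructed kidneys, against 7 of 12 contralateral kidneys, and passed in no obstruction comparison; with the mouse as a fixed block its changes of -0.47 in Twist1-deleted and -0.56 in Snai1-deleted mice passed (adjusted p = 0.0483 and 0.0470). Another F5 probe, detected on 15 arrays, changed by -0.97 and -1.03 in the Snai1 line, where the probe used changed by -0.06 and -0.56.

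Fga and Fgg encode the fibrinogen alpha and gamma chains, whose readings differed widely between obstructed kidneys. Fga read 9.33, 9.79, 10.21 and 8.96 in obstructed kidneys of Twist1-deleted mice, against 8.20, 8.32 and 8.21 in contralateral kidneys. In Snai1-deleted mice it read 8.71, 11.32 and 9.76 in obstructed kidneys, against 8.38, 7.98 and 8.39 in contralateral kidneys. In Twist1-line controls it read 9.87, 7.34 and 10.55 in obstructed kidneys, against 8.15, 8.39 and 8.10 in contralateral kidneys. All pairs but that of mouse 2 were higher on the obstructed side, and mouse 2 read lower than any other kidney.

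Fga rose by 1.33 ± 0.49 in Twist1-deleted mice (2.51-fold, adjusted p = 0.0322) and by 1.68 ± 0.53 in Snai1-deleted mice (3.21-fold, adjusted p = 0.0287). Both calls were lost with the mouse as a fixed block, at adjusted p = 0.131 and 0.0854. They were also lost when single mice were left out: mouse 4, 5 or 6 in the first group and mouse 12 or 13 in the second. Over the settings other than leaving out mice, 3 recomputed values of these calls did not pass. The changes of Fga in Twist1-line controls (1.04, adjusted p = 0.106) and Snai1-line controls (1.23, adjusted p = 0.0691) did not pass. Without mouse 2 the change in Twist1-line controls was 2.09 and passed (adjusted p = 0.00144), and that of Fgg was 3.17 (adjusted p = 0.0109). Fga passed in Snai1-line controls with the mouse as a random block (adjusted p = 0.0405). The other Fga probe changed by 0.77 to 1.72. Fgg was higher on the obstructed side in 10 of 12 pairs, by -0.46 to 4.29, and its changes of 1.49 to 2.09 passed in none of the 4 comparisons (adjusted p = 0.0601 to 0.141), although that in Snai1-deleted mice was 2.85 and passed without mouse 11 (adjusted p = 0.0386). With the mouse as a random block Fgg passed in Twist1-line controls (adjusted p = 0.0275) and Snai1-deleted mice (adjusted p = 0.0418). The lower obstructed readings of Fgg were 6.09 in mouse 2, 5.88 in mouse 7 and 6.31 in mouse 11, while all other obstructed kidneys read 8.41 or more.

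**Figure D3:**
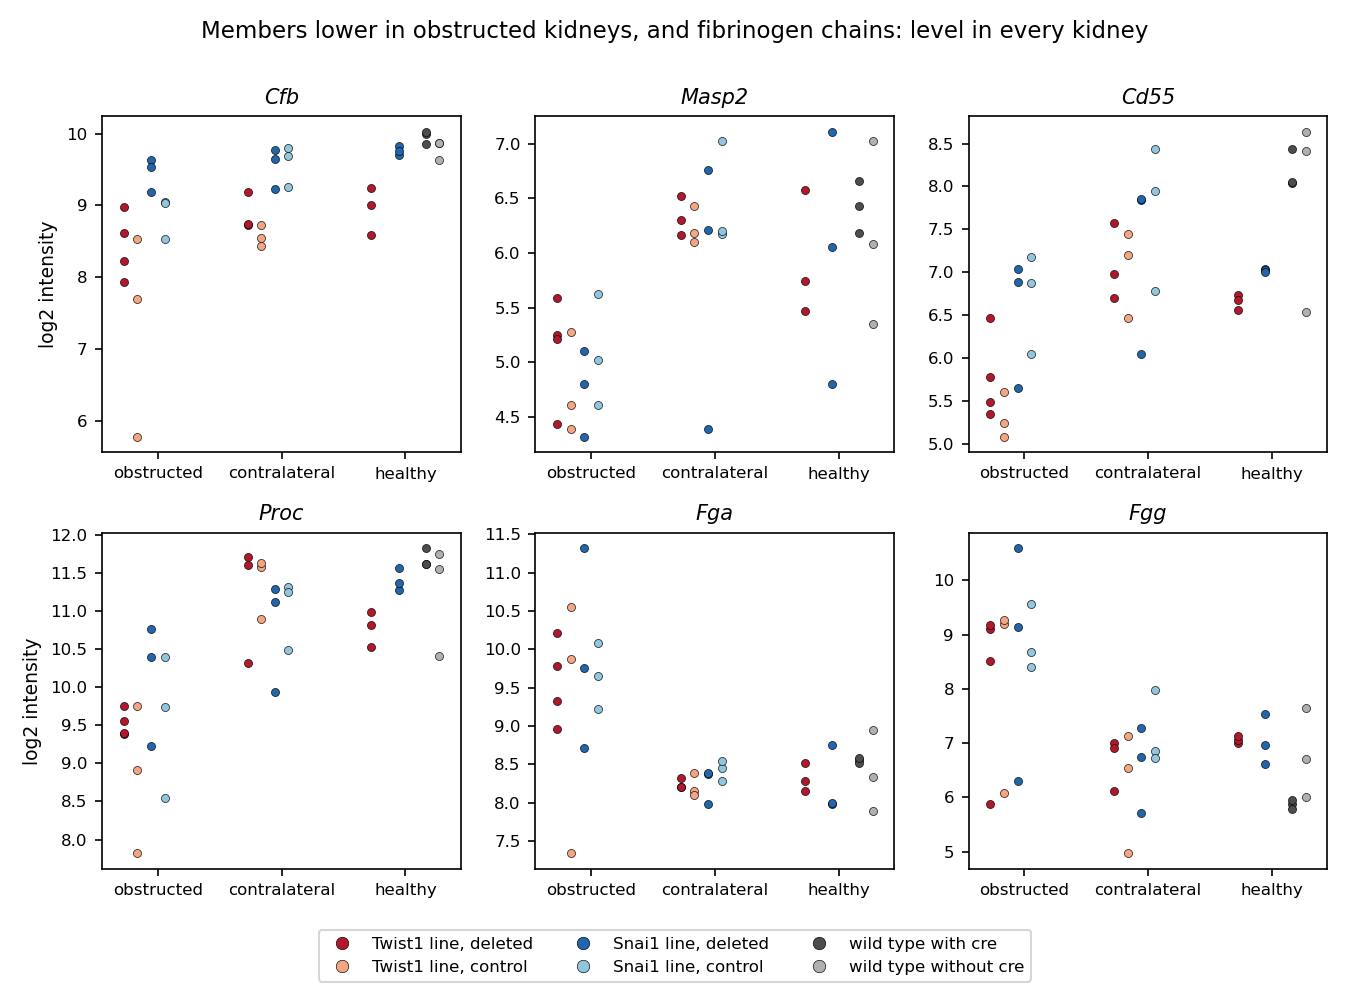
Log2 intensity (y axes) of Cfb, Masp2, Cd55, Proc, Fga and Fgg in 13 obstructed, 12 contralateral and 12 healthy kidneys (x axes), with 1 point per kidney coloured by genotype. Readings of the first 4 genes lie lower in obstructed kidneys with overlap between the kidneys, and Fga and Fgg range from 7.34 to 11.32 and from 5.88 to 10.59 in obstructed kidneys.

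The protein C system limits clotting, and its members changed in opposite directions. Pros1 encodes protein S, the cofactor of activated protein C and a ligand of the TAM receptors that clear dying cells. Pros1 read 10.91, 10.67 and 10.84 in obstructed kidneys of Twist1-line controls, against 8.66, 8.40 and 7.99 in contralateral kidneys. In Snai1-deleted mice it read 9.88, 10.38 and 10.29 in obstructed kidneys, against 8.49, 9.24 and 8.19 in contralateral kidneys. The obstructed kidneys lay above the contralateral kidneys in every genotype. Pros1 rose by 2.46 ± 0.22 in Twist1-line controls (5.51-fold, adjusted p = 2.49e-09), 2.04 in Snai1-line controls, 1.81 in Twist1-deleted mice and 1.54 in Snai1-deleted mice (2.91-fold, adjusted p = 1.81e-05).

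Proc encodes protein C itself, the protease that inactivates factors V and VIII. Proc read 8.91, 7.82 and 9.75 in obstructed kidneys of Twist1-line controls, against 10.89, 11.58 and 11.63 in contralateral kidneys. In Twist1-deleted mice it read 9.56, 9.38, 9.40 and 9.75 in obstructed kidneys, against 11.60, 11.70 and 10.32 in contralateral kidneys. Obstructed kidneys were low in 12 of 12 pairs, and mouse 2 was the lowest of all. Proc fell by 2.54 on the log2 scale in Twist1-line controls (5.82-fold lower, adjusted p = 5.73e-05), by 1.68 in Twist1-deleted mice (adjusted p = 0.00306) and by 1.45 in Snai1-line controls (adjusted p = 0.016). Its change of -0.65 in Snai1-deleted mice did not pass (adjusted p = 0.388). The Twist1-deleted call was lost without mouse 6 and the Snai1-line call without mouse 8 or 10. Its other probe changed by -0.69 to -3.03. The proximal tubule marker sum moved the same way, to 45200 to 60500 in obstructed kidneys of Snai1-deleted mice and 15400 to 39200 in those of Snai1-line controls, against 73900 or more in contralateral kidneys, and its part in the Proc result was not tested.

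Thbd encodes thrombomodulin, which turns thrombin into the activator of protein C. It read 7.92, 7.85 and 8.48 in obstructed kidneys of Twist1-line controls, against 7.28, 5.94 and 5.59 in contralateral kidneys. Thbd rose by 1.82 ± 0.33 there (3.52-fold, adjusted p = 5e-05), by 1.09 in Twist1-deleted mice (adjusted p = 0.00604) and by 1.03 in Snai1-line controls (adjusted p = 0.0153), and its change of 0.52 in Snai1-deleted mice did not pass (adjusted p = 0.31). The Twist1-deleted call was lost without mouse 6 and the Snai1-line call without mouse 8. Against healthy wild-type kidneys without cre, obstructed kidneys of Twist1-line controls differed by 0.48 in Thbd and did not pass (adjusted p = 0.221).

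The other inhibitors were close to background. Procr, the endothelial protein C receptor, was detected in 3 of 13 obstructed kidneys, against 3 of 12 contralateral kidneys, Serpinc1 (antithrombin) in 1 of 13 and 1 of 12, and Serpind1 (heparin cofactor II) in 4 of 13 and 0 of 12. Tfpi, the tissue factor pathway inhibitor, was detected in 13 of 13 and 8 of 12 and was higher on the obstructed side in 11 of 12 pairs by up to 1.32. None of these 4 genes passed in an obstruction comparison, except that Tfpi did in Twist1-deleted mice with the mouse as a fixed block (0.75, adjusted p = 0.0289) or a random block (0.65, adjusted p = 0.0271), and without mouse 3 (0.62, adjusted p = 0.0473), mouse 5 (0.75, adjusted p = 0.0433) or mouse 7 (0.90, adjusted p = 0.0132).

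Other genes of the same pathways were read from 4 further lists, whose median changes in Twist1-line controls were -0.15 for complement components, 0.21 for complement regulators and receptors, -0.41 for coagulation genes and 0.98 for fibrinolysis, against 0.05 for all genes. Of all genes, 26.6% rose and 20.5% fell in Twist1-line controls, and 21.9% and 18.2% in Twist1-deleted mice. The shares were 21% and 15.3% in Snai1-line controls and 10.5% and 4.76% in Snai1-deleted mice. Of 12 measured other complement components, 2 rose and 5 fell in Twist1-deleted mice, 1 rose and 0 fell in Snai1-deleted mice, 2 rose and 4 fell in Snai1-line controls, and 2 rose and 5 fell in Twist1-line controls, among them C8g, a subunit of the pore component C8, at -2.58 (adjusted p = 1.33e-05) and C8a, another subunit, at -2.47 (adjusted p = 0.000857). C8g also fell in Twist1-deleted mice (-2.12) and Snai1-line controls (-1.87), and so did C8a (-2.04 and -2.62). In Snai1-deleted mice the changes were -0.87 and -1.29 and did not pass. Of 9 measured other regulators and receptors, 1 rose and 1 fell in Twist1-deleted mice, 1 rose and 0 fell in Snai1-deleted mice, 2 rose and 0 fell in Snai1-line controls, and 1 rose and 1 fell in Twist1-line controls: Cd93, a receptor of endothelial and myeloid cells, changed by 1.66 (adjusted p = 6.91e-06) and Cr1l (Crry), a membrane inhibitor, by -1.32 (adjusted p = 0.0015). Of 17 measured other coagulation genes, 4 rose and 9 fell in Twist1-line controls, 3 rose and 6 fell in Twist1-deleted mice, 3 rose and 4 fell in Snai1-line controls, and 3 rose and 2 fell in Snai1-deleted mice. Serpina10, an inhibitor of activated factor X, rose by 4.19 in Twist1-line controls, 4.39 in Twist1-deleted mice, 3.97 in Snai1-line controls and 4.52 in Snai1-deleted mice (adjusted p = 1.21e-05). F13b, the carrier subunit of factor XIII, changed by -4.67 in Twist1-line controls (adjusted p = 2.6e-06), -3.15 in Twist1-deleted mice and -2.82 in Snai1-line controls, all past the threshold, and by -1.31 in Snai1-deleted mice, which was not (adjusted p = 0.208).

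Of 8 measured genes of fibrinolysis, the system that dissolves fibrin, 6 rose and 1 fell in Twist1-line controls (against 26.6% and 20.5% of all genes), 5 rose and 0 fell in Twist1-deleted mice (21.9% and 18.2%), 7 rose and 0 fell in Snai1-line controls (21% and 15.3%), and 4 rose and 0 fell in Snai1-deleted mice (10.5% and 4.76%). Anxa2, a cell-surface docking site of plasminogen, rose in all 4 groups, by 2.13 in Snai1-deleted mice to 2.65 in Twist1-line controls, and Plat (tissue plasminogen activator) by 1.09 to 2.22 in the same groups. Plaur, the urokinase receptor, rose by 1.96 in Twist1-line controls, 1.25 in Snai1-deleted mice and 1.11 in Snai1-line controls, and was at least 2.59-fold higher in obstructed kidneys of Twist1-deleted mice, whose contralateral kidneys gave no detected signal. Serpinf2, the plasmin inhibitor, fell by 2.82 in Twist1-line controls (adjusted p = 0.0109).

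The study also asked whether losing Twist1 or Snai1 in proximal tubule cells alters the injured kidney. No member passed the test between deleted and control mice in obstructed kidneys of the Twist1 line (0 of 29, against 0.0311% of all genes, 0.00777% up and 0.0233% down) or of the Snai1 line (0 of 29, against 0% of all genes). By limma 2 of 29 members had an unadjusted p under 0.05 in the Twist1 line, against 1475 of 12866 genes. In the Snai1 line 3 of 29 members did, against 1421 of 12866 genes. Neither share is above that of all genes. These comparisons use the same obstructed control kidneys as the obstruction comparisons above.

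The members with an unadjusted p under 0.05 in the Twist1 line were Cfb and Pros1. Cfb read 7.93, 8.23, 8.61 and 8.98 in obstructed kidneys of Twist1-deleted mice, against 7.70, 5.78 and 8.53 in controls, which overlapped. The log2 difference was 1.10 (95% confidence interval 0.39 to 1.81, adjusted p = 0.247). Without control mouse 3 it was 1.69 and passed (adjusted p = 0.0175), which leaves mice 1 and 2 as controls. The proximal tubule marker sum was 19000 to 59300 in these Twist1-deleted kidneys and 5470 to 22400 in the controls, and control mouse 2 was lowest in both the sum and Cfb. The median log2 difference of the 10 markers was 1.16, and their part in the Cfb difference was not tested. Pros1 read 10.44, 10.78, 10.23 and 9.82 in Twist1-deleted mice, against 10.91, 10.67 and 10.84 in controls, a difference of -0.49 (interval -0.92 to -0.06, adjusted p = 0.379).

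In the Snai1 line the members were C1qc, Cfp and Serping1. C1qc read 9.74, 9.97 and 10.18 in obstructed kidneys of Snai1-deleted mice, against 11.10, 10.43 and 10.63 in controls, with no overlap. The difference was -0.76 (interval -1.46 to -0.05, adjusted p = 0.417). Serping1 read 11.38, 11.71 and 11.84 in Snai1-deleted mice, against 12.51, 11.99 and 12.50 in controls, a difference of -0.69 (interval -1.28 to -0.10, adjusted p = 0.372). Cfp differed by -0.69 (interval -1.29 to -0.10, adjusted p = 0.379) and overlapped between the groups. The macrophage marker sum was 5360 to 8080 in these Snai1-deleted kidneys and 8110 to 14400 in the controls, the fibroblast marker sum 4200 to 4600 and 6030 to 8770, and the proximal tubule sum 45200 to 60500 and 15400 to 39200. The part of these markers in the differences was not tested.

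The intervals bound what these groups could show. For C1qb the difference in obstructed kidneys was -0.55 in the Twist1 line (interval -1.28 to 0.19) and -0.61 in the Snai1 line (interval -1.39 to 0.17). For Cfi it was -0.20 (interval -0.97 to 0.57) and 0.00 (interval -0.82 to 0.82), and for F2r -0.31 (interval -0.86 to 0.25) and -0.43 (interval -1.02 to 0.16), and none of these 6 intervals excludes 0. In contralateral kidneys no member passed in the Twist1 line (against 0.00777% of all genes) or the Snai1 line (against 0% of all genes). None had an unadjusted p under 0.05, against 663 of 12866 genes in the Twist1 line and 328 in the Snai1 line. The obstruction response itself, tested as an interaction, differed for no member in the Twist1 line (against 0% of all genes) or the Snai1 line (against 0% of all genes). Its only unadjusted p under 0.05 was for Pros1 in the Twist1 line (difference -0.65, interval -1.28 to -0.03, adjusted p = 0.827), where 757 of 12866 genes had one.

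**Figure D4:**
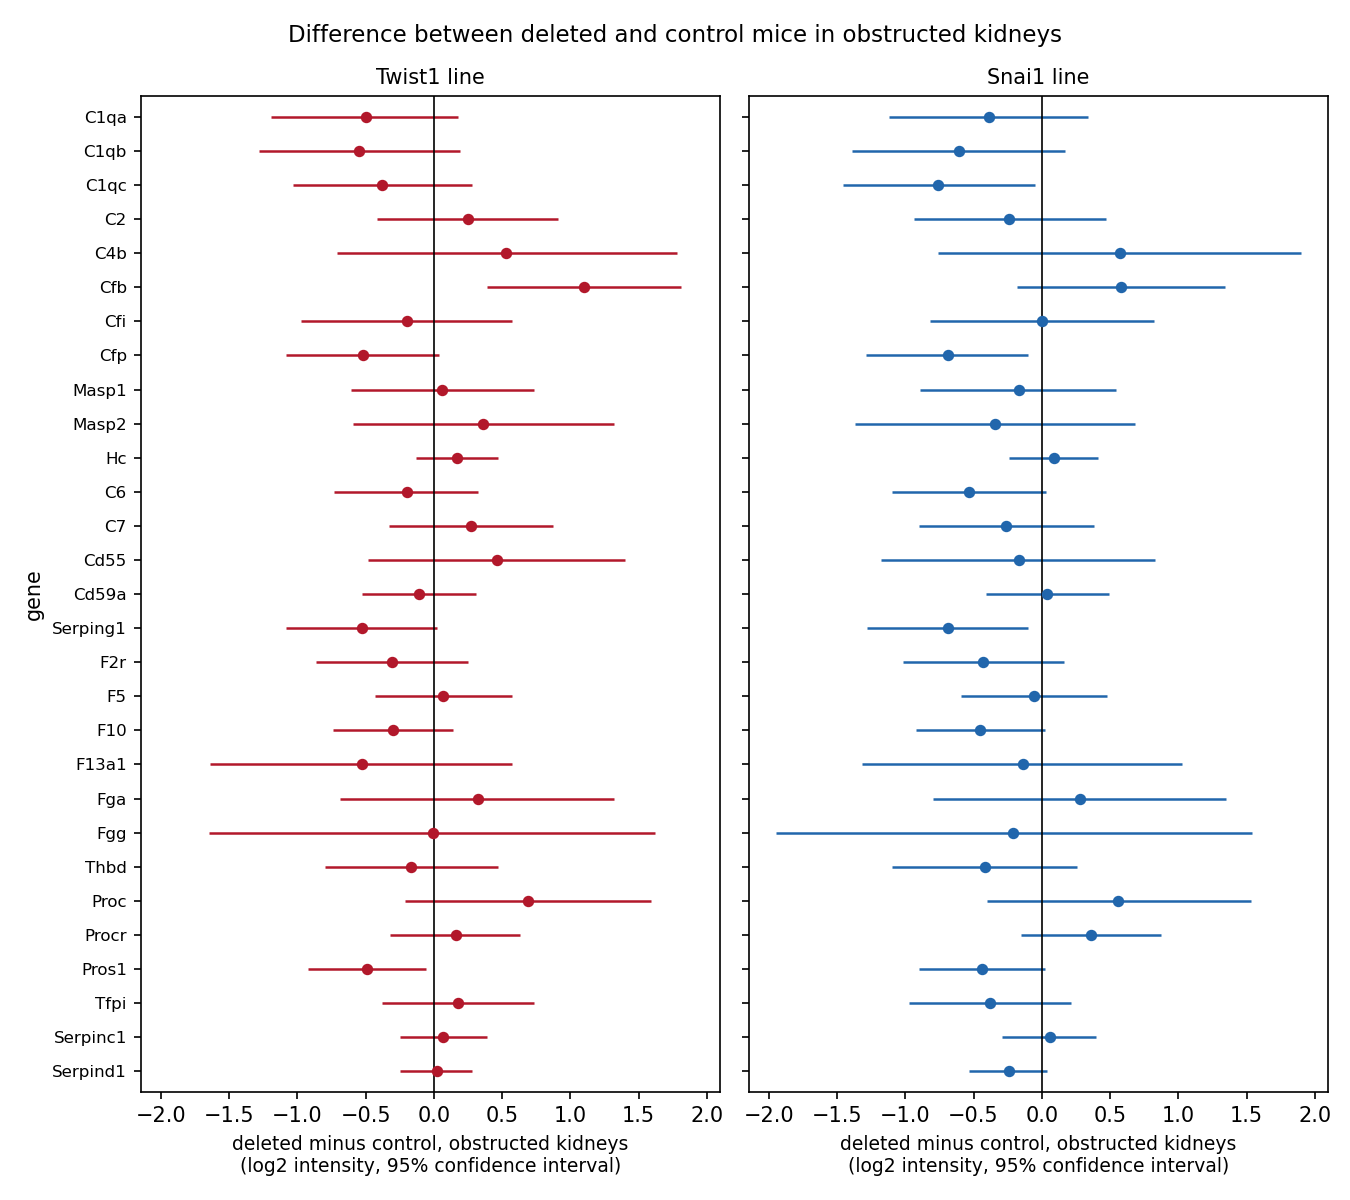
Log2 difference between deleted and control mice in obstructed kidneys (x axes) for each of the 29 genes (y axis), with the 95% confidence interval as a line, for the Twist1 line (left panel) and the Snai1 line (right panel). Most intervals span 0, and no difference passed after adjustment over all genes.

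Some members differed between the 2 lines of control mice, at a share no higher than that of all genes. Line, strain background and breeding cannot be told apart. In obstructed kidneys Cd59a and F13a1 were higher and Cfb, Hc, C7 and Cd55 lower in Twist1-line than in Snai1-line controls. That is 6 of 29 members or 20.7%, against 22.1% of all genes (12% up and 10% down). In contralateral kidneys Cd59a was higher and Thbd lower, which is 2 of 29 or 6.9%, against 13.3% of all genes (7.27% up and 6.07% down). Without mouse 2, 9 or 10 only 3 of the 6 passed, and without mouse 2 the contralateral count was 5, with C4b, Cfb and Hc added. The obstruction response differed between the lines for no member (against 0.0389% of all genes, 0.0155% up and 0.0233% down). An unadjusted p under 0.05 was found for 2 of 29 members, a share not above that of all genes (1259 of 12866). These were C1qa, by 1.34 (adjusted p = 0.395), and Cfi, by 1.16 (adjusted p = 0.506).

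Cd59a separated the lines in every kidney measured. It read 11.69, 11.46 and 11.14 in obstructed kidneys of Twist1-line controls, against 9.97, 10.05 and 9.85 in Snai1-line controls. In contralateral kidneys it read 11.54, 11.57 and 11.37 in Twist1-line controls, against 9.98, 10.17 and 10.39 in Snai1-line controls. The differences were 1.48 ± 0.22 (adjusted p = 5.34e-05) and 1.32 ± 0.22 (adjusted p = 0.000515). Deleted mice followed their line, with means of 11.33 ± 0.51 (SD, n = 4) in Twist1-deleted and 9.99 ± 0.22 (SD, n = 3) in Snai1-deleted obstructed kidneys. Healthy Snai1-deleted mice read 9.65, 10.15 and 10.21, against 11.35, 11.48 and 11.23 in healthy wild-type mice with cre, 1.35 lower (adjusted p = 0.000793).

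The other line differences were smaller or rested on fewer mice. Cfb was 1.53 lower in obstructed kidneys of Twist1-line controls (adjusted p = 0.00355) and 0.76 lower without mouse 2, which still passed. F13a1 was 1.99 higher (adjusted p = 0.0128) but 1.23 higher without mouse 2 and 1.70 higher without mouse 10, neither past the threshold. In contralateral kidneys Thbd was 1.40 lower (adjusted p = 0.00665), and 1.05 lower and not past the threshold without mouse 3. In obstructed kidneys Cd55 was 1.39 lower (adjusted p = 0.0407), a call lost without mouse 1, 2, 3, 8 or 9. C7, detected in 1 of 3 Twist1-line and 3 of 3 Snai1-line controls there, was 1.04 lower (adjusted p = 0.0165), a call lost without mouse 2, 3, 9 or 10. Hc, detected in 0 of 3 obstructed Twist1-line and 3 of 3 Snai1-line control kidneys, was at least 1.04-fold lower in the Twist1 line (adjusted p = 0.03), a call lost without mouse 1, 8, 9 or 10.

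**Figure D5:**
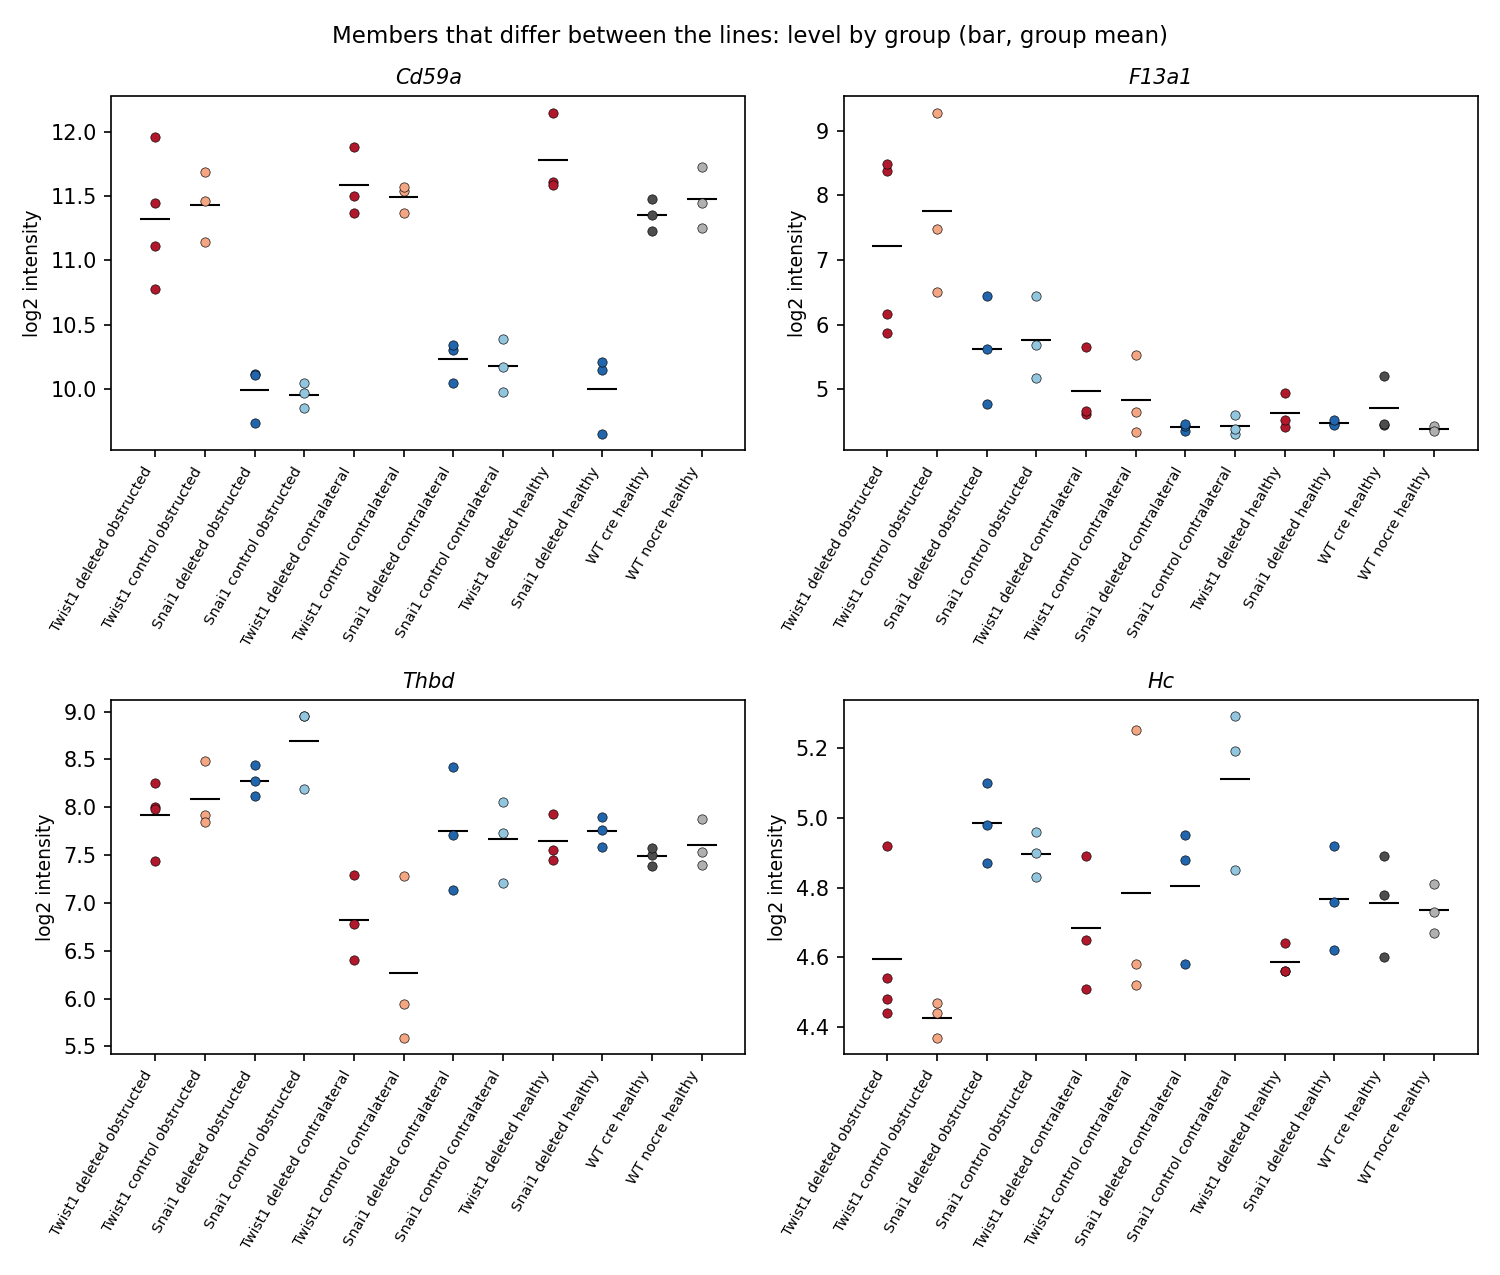
Log2 intensity (y axes) of Cd59a, F13a1, Thbd and Hc in the 12 groups (x axes), with 1 point per kidney and a bar at each group mean. Cd59a lies between 10.78 and 12.15 in all Twist1-line and wild-type kidneys and between 9.65 and 10.39 in all Snai1-line kidneys, and the lowest Thbd readings, 5.59 and 5.94, are contralateral kidneys of Twist1-line controls.

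Contralateral kidneys were set against kidneys of unoperated wild-type mice without cre, which share the strain background of the Twist1 line but not its floxed allele. Cfb and Thbd were lower in contralateral kidneys of Twist1-line controls, 2 of 29 members or 6.9%, against 17.7% of all genes (8.58% up and 9.15% down). Cfb read 8.55, 8.43 and 8.73 there, against 9.63, 9.87 and 9.87 in the healthy kidneys, 1.22 lower without overlap (adjusted p = 0.0222). Thbd read 7.28, 5.94 and 5.59, against 7.88, 7.53 and 7.40, 1.33 lower (adjusted p = 0.00696) but 0.99 lower and not past the threshold without mouse 3. The Cfb call was lost without mouse 1, 18 or 19.

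Against the same healthy kidneys, obstructed kidneys of Twist1-line controls had 11 members higher and 4 lower. Together that is 51.7%, against 56.6% of all genes (31.5% up and 25.1% down). The 9 genes that rose in all 4 genotypes were among the 11, with C1qb 18.6-fold higher (adjusted p = 1.89e-09), Cfi 9.58-fold and Pros1 5.05-fold. F13a1, detected in none of these healthy kidneys, was at least 6.45-fold higher (adjusted p = 1.5e-05), and at least 3.80-fold without mouse 2 (adjusted p = 0.000502), whose kidney read 9.28, against 7.48 and 6.51 in the other obstructed kidneys. Cfb was 2.46 lower on the log2 scale (adjusted p = 2.56e-06), Cd55 2.56 lower (adjusted p = 6.54e-05), Proc 2.40 lower (adjusted p = 8.22e-05) and Masp2 1.39 lower (adjusted p = 0.0188), the last a call lost without mouse 2, 3 or 19. The value of Cfb was 1.68 lower without mouse 2. F10 is the other of the 11, detected in 1 of 3 of these obstructed kidneys and in none of these healthy kidneys, and no change is read from it; 10 members were higher without it. Without mouse 2 the members passing numbered 17, with C2, C6, Fga and Fgg added and Masp2 and F10 lost.

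In healthy kidneys no member passed between wild-type mice with and without cre (0 of 29, against 0.0155% of all genes). By limma none had an unadjusted p under 0.05, against 306 of 12866 genes. With 3 mice in each group this does not exclude a difference. Healthy Twist1-deleted mice had 1 member higher than wild-type mice with cre, Cfi, a count that was 7 with array weights and 10 in a fit to these groups alone (against 3.39% of all genes, 1.94% up and 1.45% down). Cfi read 7.01, 7.79 and 8.27, against 6.40, 6.51 and 5.81, 1.45 ± 0.40 higher (adjusted p = 0.0428). With the mouse as a random block its adjusted p was 0.0508, and with the Xist reading as a covariate, chosen after seeing the data, the difference was 1.11 (adjusted p = 0.246). The call was also lost without mouse 14, 15, 16, 21 or 22, at differences of 1.16 to 1.59. All 3 Twist1-deleted mice were 26 weeks old and read Xist above Y-linked genes, and all 3 wild-type mice were 10 weeks old and did not, so deletion, age and this reading cannot be told apart. Healthy Snai1-deleted mice had 1 member lower, Cd59a, described above (against 0.871% of all genes, 0.56% up and 0.311% down), where deletion, age and strain background cannot be told apart.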

How the data were processed

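Total RNA of 37 whole kidneys from 25 mice was amplified and hybridised to Illumina bead arrays. Probe intensity values without normalisation and a detection p-value per probe were deposited by the authors, made with GenomeStudio 5.0 per the submitters' processing notes. An array detected 16977 to 20682 probes, and the number of arrays limits the precision.

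Intensities were background-corrected and quantile-normalised (limma 3.58.1, R 4.3.3, neqc, offset 16). Probes detected at p under 0.05 on 3 or more arrays and naming 1 gene were kept, with the brightest probe per gene (12866 genes). One limma fit over the 12 groups gave all contrasts, with Benjamini-Hochberg adjustment over all genes and a threshold of 0.05. The fit was tested on simulated data. Within a group mice were the replicates, and the main fit did not pair the kidneys of a mouse.

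The labels number the mice, which pairs the kidneys: residuals of a mouse's kidneys correlated at 0.171 to 0.63 in 12 pairs (consensus 0.233). Members and lists were chosen with earlier results of these data known. Every member past the threshold could be named, and at most the 4 largest called changes of each further pathway list. Alternatives were background and scaling, detection filters, probe averaging, mouse blocks, spread models, array weights, fewer groups, mice left out, the deposited series matrix and, chosen after seeing the data, Xist as a covariate.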

Additional observations from a re-analysis of the deposited data

Results flagged for a closer look

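The F2r reading of 12.42 in the obstructed kidney of mouse 7 of the Twist1-deleted group lay far below the other 3 obstructed kidneys of that group, which read 13.28, 13.29 and 13.42. The same kidney had the group's lowest C1qb reading (9.45, against 11.35 to 11.83) and its highest proximal tubule marker sum (59300, against 19000 to 28500). The Twist1-deleted obstructed kidneys are the only group of 4, so 29 sets of readings, 1 per gene, were tested in this way, and by chance about 1 in 20 such sets would be singled out.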

How the results depend on the processing

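No call of a member reversed under any alternative. Of 87 calls, 6 were lost with quantile normalisation, 3 with the series matrix values, 6 at a common median, 5 with no detection filter, 0 of 86 with the stricter filter, 1 with probes averaged, 6 with array weights and 14 with only the groups compared. With the mouse as a fixed replicate block 5 of 60 calls were lost, and the members passing numbered 17 in Twist1-deleted mice, 18 in Twist1-line controls, 10 in Snai1-deleted mice and 14 in Snai1-line controls, against 17, 19, 10 and 14 without it. As a random block the counts were 19, 21, 11 and 18. The calls that a block ended or added are given beside their results, except Hc, added by a random block for obstruction in Twist1-line controls but detected in 0 of 3 of their obstructed kidneys, and F5 in obstructed Twist1-line controls against healthy kidneys (-0.60, adjusted p = 0.0470 with a random block). Scaling to a common median moved the median obstruction change of all genes to -0.27 in Twist1-deleted mice, -0.21 in each control group and -0.17 in Snai1-deleted mice, against 0.00 to 0.05, and that of the members to 0.76, 0.76, 0.73 and 0.48 in Twist1-deleted mice, Twist1-line controls, Snai1-line controls and Snai1-deleted mice. Quantile normalisation gave member medians of 0.71, 0.95, 0.38 and 0.37 in that order, the stricter filter 1.33, 1.71, 1.09 and 0.87, and array weights 1.13, 1.46, 1.05 and 0.65.

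The cause of the following changes was not tested. With only the groups compared, the line difference counted 3 members in obstructed kidneys (6 in the fit to all groups) and contralateral against healthy kidneys 1 (2). At a common median the line difference counted 4 in contralateral kidneys (2). For healthy Twist1-deleted mice (1) the count was 2 with quantile normalisation, 2 at a common median, 0 with no filter, 0 with a random block, 7 with array weights, 10 with only the groups compared and 0 with the Xist covariate. For healthy Snai1-deleted mice (1) it was 2 with array weights and 4 with only the groups compared. Leaving out single mice of the groups compared gave 10 to 16 for obstruction in Twist1-deleted mice (10 without mouse 6), 0 to 1 for the Twist1 deletion in obstructed kidneys, 3 to 4 and 2 to 5 for the line difference in obstructed and contralateral kidneys, 1 to 3 for contralateral against healthy kidneys and 0 to 1 for healthy Twist1-deleted mice. With mice of other groups left out too, the last ran to 3 (without mouse 7) and obstruction in Snai1-line controls, 10 to 12 otherwise, to 18 (without mouse 2). Averaging probes gave member medians of 0.62, 0.65, 0.72 and 0.38 in Twist1-deleted mice, Twist1-line controls, Snai1-line controls and Snai1-deleted mice. A slide block was not run, since the headers name no slides. Signal near background limits Hc, C6, C7, F5, F10, Procr, Serpinc1 and Serpind1, and in part the sizes of the changes of Masp2 and F13a1.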

Other observations

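In contralateral and healthy kidneys some members read apart in the mice whose Xist reading lay above Y-linked genes. In contralateral kidneys Cd55 read 6.04 to 6.78 in the 4 such mice and 6.98 to 8.44 in the other 8, Proc read 9.93 to 10.89 and 11.11 to 11.70, and Pros1 read 8.66 to 9.24 and 7.99 to 8.61. In healthy kidneys Cd55 read 6.54 to 6.73 in 4 such mice and 7.00 to 8.64 in the other 8, and Proc read 10.41 to 10.99 and 11.27 to 11.82. C4b, Cfb, C2, Cd59a and Tfpi also did not overlap in healthy kidneys, where 3 of the 4 mice were 26-week-old Twist1-deleted mice. The other 8 included all 3 healthy Snai1-deleted mice, which read 9.65 to 10.21 in Cd59a. Line, genotype and age thus differ between these sets and cannot be told apart from the Xist reading. C4b read 6.17 to 7.32 in the 4 mice and 7.99 to 9.42 in the other 8, and Cfb read 8.59 to 9.63 and 9.70 to 10.03. C2 read 11.05 to 11.21 and 10.33 to 10.86, Cd59a 11.59 to 12.15 and 9.65 to 11.48, and Tfpi 6.02 to 6.49 and 5.14 to 5.67. In obstructed kidneys every member overlapped between the 4 such mice and the other 9, and Pros1 also overlapped in healthy kidneys (8.51 to 9.16 and 8.32 to 8.91). These readings were noticed in the data and carry no test, and sex is not in the labels. The share of all genes that read apart between the same mice is not given here, so nothing particular to the members is read from them.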
